A study of Mus musculus with 2 samples.

Results

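The Toll-like receptors and their co-receptors and adaptor were followed through immune cells sorted from the mouse colon. They were the 10 genes Tlr1, Tlr2, Tlr4, Tlr6, Tlr7, Tlr9, Tlr13, Cd14, Ly96 and Myd88, taken by symbol from the 31053 genes that both count matrices list. The cells came from bone marrow chimeras, made to ask how very long chain ceramides bear on inflammation where IL-10 signalling is missing. CD45.2 donor marrow was IL-10R KO, which lacks the Il10rb chain of the IL-10 receptor, or IL-10R/CerS2 DKO, which lacks ceramide synthase 2 as well, and every recipient was a CD45.1 mouse. Loss of the IL-10 receptor was thus shared by both groups, referred to as KO and DKO, and no marrow with an intact receptor was analysed here. Recipient cells that survive conditioning keep both genes, and the ages of the mice are not given in the sources used here. By the methods of the study, cells carrying CD45, CD11b, CD11c and CD64 were sorted, a gate meant to keep lymphocytes and neutrophils out. Its results text describes the sorted cells only as CD45-positive immune cells. Each genotype was measured in 1 library, so genotype, mouse, sort and library cannot be told apart, no test was possible, and each interval given is a 95% interval that covers counting error only.

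Toll-like receptors bind molecules that microbes carry and mammals mostly do not. TLR1, TLR2, TLR4 and TLR6 sit at the cell surface and meet lipids and lipoproteins of the bacterial envelope, whereas TLR7, TLR9 and TLR13 sit in endosomes and meet nucleic acids of engulfed microbes. All of these receptors hand their signal to the adaptor MyD88, which leads to NF-κB and to inflammatory cytokines. In the healthy colon, incoming monocytes respond readily to these ligands, and mature resident macrophages respond little despite living beside the microbiota.

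In the mouse genome (GRCm38, GENCODE annotation), all 10 were protein-coding genes. Tlr1 (chr5:64924679-64933563) and Tlr6 (chr5:64952031-64960097) were neighbours on the minus strand and shared part of their sequence. Of all 31-base words in the transcripts of Tlr1, 20.02% also occurred in another gene, mostly Tlr6, and for Tlr6 the share was 16.6%. In the last 500 bases, from which a 3′ library is mostly read, the shares were 11.1% and 1.49%, counted against all other genes. Of this pair, the count of Tlr1 was thus the more open to shared sequence, and the effect on it was not tested. The other members shared at most 1.27% of their words. Tlr2 lay at chr3:83836272-83841767, Tlr4 at chr4:66827584-66930284, Tlr7 at chrX:167304929-167330558, Tlr13 at chrX:106143204-106160493, Tlr9 at chr9:106222598-106226883, Ly96 at chr1:16688051-16709611 and Myd88 at chr9:119335934-119341411. Exons of Myd88 overlapped those of Acaa1a on the opposite strand, and how the counting treated strand is not given in the sources used here.

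The promoters of Tlr2, Tlr6 and Myd88 are shown because these genes differed in direction between macrophage states, as described further on. Each runs from 250 bases before the start of transcription to 50 bases after it, 5′ to 3′ on the strand of the gene, after RefSeq for GRCm38.p6. Such sequences were examined for 6 of the 10 members. For Tlr6, which has 2 listed starts, the window shown is that of the downstream start, inside the gene. The window at the 5′ end of Tlr6, chr5:64959999-64960298, is not shown and held 0 matches. Capitals mark matches, on either strand, to the letters GGGNNTTCC for NF-κB in Tlr2 and GAAANNGAA for interferon response factors in Tlr6 and Myd88.
Tlr2 promoter, chr3:83841559-83841858, minus strand: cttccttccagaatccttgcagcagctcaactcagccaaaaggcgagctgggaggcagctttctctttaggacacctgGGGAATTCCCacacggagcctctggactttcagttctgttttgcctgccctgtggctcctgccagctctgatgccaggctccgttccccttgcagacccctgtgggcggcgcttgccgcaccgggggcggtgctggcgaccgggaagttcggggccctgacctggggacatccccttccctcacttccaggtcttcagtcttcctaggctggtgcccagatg
Tlr6 promoter, chr5:64959117-64959416, minus strand: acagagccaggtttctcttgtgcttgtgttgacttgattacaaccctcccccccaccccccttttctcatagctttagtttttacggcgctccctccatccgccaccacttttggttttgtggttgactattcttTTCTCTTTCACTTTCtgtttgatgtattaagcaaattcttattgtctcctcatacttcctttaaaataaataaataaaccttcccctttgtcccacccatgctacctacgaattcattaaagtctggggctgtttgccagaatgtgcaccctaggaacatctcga
Myd88 promoter, chr9:119339969-119340268, minus strand: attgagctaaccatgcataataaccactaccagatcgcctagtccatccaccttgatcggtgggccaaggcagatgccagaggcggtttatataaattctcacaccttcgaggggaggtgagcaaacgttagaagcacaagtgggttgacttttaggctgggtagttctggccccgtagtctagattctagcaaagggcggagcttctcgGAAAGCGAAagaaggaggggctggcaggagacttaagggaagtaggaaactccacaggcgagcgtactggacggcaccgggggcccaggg
In Tlr2 the same bases matched the NF-κB letters on both strands, starting at -172 and -171. The downstream start of Tlr6 held 2 overlapping interferon response matches on the opposite strand, at -115 and -109, and Myd88 held 1 on its own strand at -40. Of all 32851 promoters of this length, 5.82% held the NF-κB letters and 8.56% the interferon response letters. Letters of the myeloid factor PU.1 (GAGGAAGT, in 3.20% of promoters) matched in Tlr9 and upstream of the second start of Tlr1, and those of AP-1 (TGANTCA, in 7.81%) matched in Tlr9. No match to these 4 sets of letters was seen in the windows of Tlr13, the first start of Tlr1 or the second start of Tlr6. Starts were numbered by ascending coordinate, so for Tlr1 and Tlr6, on the minus strand, the second start is the upstream one. A match describes the letters only.

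After filtering, 2443 KO cells and 730 DKO cells were kept, and the median cell held 4715 and 3722 unique molecular identifiers (UMIs, each a captured transcript). The libraries shared 1 cell barcode. Clustering with all 10 members left out of the genes used to cluster gave a monocyte/macrophage-like class of 1514 KO and 319 DKO cells, which was 62.0% and 43.7% of the cells. All 14 monocyte/macrophage markers were detected in it, at a sum of 14612 counts per 1000000 UMIs of the class (CPM) in KO and 17321 CPM in DKO. KO dendritic cell-like cells also had all 14, at 3313 CPM, and DKO ones had 13, at 7007 CPM, so detection alone does not set the class apart. By the naming rule its clusters had 11, 7, 11 and 3 of the 14 markers. The last of these, led by Cxcl3, Arg1 and Nos2, held 181 KO and 2 DKO cells. Despite the gate given in the methods of the study there were also neutrophil-like (161 KO and 48 DKO), B cell-like (228 and 166), T cell-like (147 and 46) and dendritic cell-like (109 and 53) cells. A cluster led by Ikzf2, Xcl1, Cd7 and Nkg7 (141 and 67) and a cluster of low depth led by Gm26917 and Mki67 (143 and 31) stayed unnamed. Cers2, the gene that only DKO marrow lacks, had 442 UMIs (50.9 CPM) in KO monocyte/macrophage-like cells and 0 UMIs in the DKO ones.

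Most transcripts of the family came from monocyte/macrophage-like cells. Neutrophil-like cells had higher Tlr6, Cd14 and Myd88 than these in both libraries, and higher Tlr4, Tlr13 and Ly96 in KO. Of the UMIs of each receptor and co-receptor in KO, the monocyte/macrophage-like class held between 77.9% (Tlr6) and 94.9% (Tlr7), beside 69.98% of all kept UMIs. In DKO, where the class held 52.15% of kept UMIs, the range ran from 65.5% (Tlr6) to 94.7% (Tlr7). Levels were compared within a gene only, since 3′ counts do not carry over from gene to gene.

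Tlr2, the partner that TLR1 and TLR6 need to bind lipopeptides, was at 248.9 CPM in KO and 213 CPM in DKO monocyte/macrophage-like cells, and at 255 and 213 CPM in neutrophil-like cells. The log2 ratio of neutrophil-like over monocyte/macrophage-like cells was 0.04 in KO (interval -0.32 to 0.36), so no difference was detectable at this depth. Dendritic cell-like cells had 24.6 CPM of Tlr2 in KO and 16.1 CPM in DKO, and B cell-like cells had 1 UMI in KO and 0 in DKO. Tlr6, which forms the receptor for a different set of lipopeptides with TLR2, was at 134 CPM (40 UMIs) in KO neutrophil-like cells against 18.7 CPM in KO monocyte/macrophage-like cells, a log2 ratio of 2.86 (2.31 to 3.35). In DKO these levels were 94.8 CPM (8 UMIs) and 10.7 CPM, and their log2 ratio was 3.20 (1.75 to 4.40). Tlr6 was thus higher in the neutrophil-like cells of both libraries, where 19.2% of its KO UMIs and 27.6% of its DKO UMIs were found.

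Tlr4, the lipopolysaccharide receptor, was at 97.2 CPM (29 UMIs) in KO neutrophil-like cells and 27.4 CPM in KO monocyte/macrophage-like cells, a log2 ratio of 1.85 (1.22 to 2.39). In DKO the levels were 71.1 CPM, from 6 UMIs, and 26.5 CPM, and the interval of the log2 ratio, -0.09 to 2.65, included 0. Tlr4 had 2 UMIs in KO dendritic cell-like cells and 0 in DKO ones, and 0 in B cell-like and T cell-like cells of both libraries. Tlr1, which pairs with TLR2, was at 16.3 CPM in KO and 13.5 CPM in DKO monocyte/macrophage-like cells. Its 5 UMIs in DKO B cell-like cells came from 3 cells, and KO B cell-like cells had 1 UMI.

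Cd14, which passes lipopolysaccharide on to TLR4 and also serves TLR2, was the most counted member, with 15972 UMIs in KO and 2902 in DKO monocyte/macrophage-like cells. It was at 1839 and 1636 CPM there, and at 4866 and 6174 CPM in neutrophil-like cells, a log2 ratio between the classes of 1.40 (1.33 to 1.48) in KO and 1.92 (1.78 to 2.05) in DKO. Dendritic cell-like cells had lower levels, 256 CPM in KO and 311 CPM in DKO. In B cell-like cells 2 UMIs were counted in KO and 1 in DKO. Ly96 encodes MD-2, the part of the TLR4 complex that holds lipopolysaccharide, and was at 29.9 and 47.9 CPM in monocyte/macrophage-like cells of KO and DKO. In KO neutrophil-like cells it was at 60.3 CPM (18 UMIs), a log2 ratio between the classes of 1.05 (0.23 to 1.70). In DKO ones it was at 71.1 CPM (6 UMIs), and the interval of the log2 ratio, -0.92 to 1.75, included 0. In B cell-like cells it was counted at 13.3 CPM (9 UMIs) in KO and 10.8 CPM (5 UMIs) in DKO, close to the 10.03 and 12.9 CPM of T cell-like cells, and it was seen in 3.95% of KO B cell-like and 3.40% of KO T cell-like cells. Over monocyte/macrophage-like cells this gave log2 ratios of -1.09 (-2.31 to -0.22) in KO and -2.02 (-3.81 to -0.87) in DKO.

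Among the endosomal receptors, Tlr7, which binds single-stranded RNA, was at 34.2 CPM in KO and 40.03 CPM in DKO monocyte/macrophage-like cells. Neutrophil-like and dendritic cell-like cells of both libraries had 0 UMIs of Tlr7, where 3 counts would be 10.1 CPM in KO and 35.6 CPM in DKO neutrophil-like cells and 3.07 and 5.36 CPM in dendritic cell-like cells. In DKO neutrophil-like cells the interval of the ratio to monocyte/macrophage-like cells reached 0.16 on the log2 scale, so a lower level was not detectable in them, whereas in DKO dendritic cell-like cells its upper bound was -2.56. B cell-like cells had 14.8 CPM (10 UMIs) of Tlr7 in KO and 8.66 CPM (4 UMIs) in DKO. Tlr13, which in mice recognises bacterial ribosomal RNA, was at 28.2 and 19.7 CPM in monocyte/macrophage-like cells, at 73.7 CPM (22 UMIs) in KO neutrophil-like cells and at 23.7 CPM (2 UMIs) in DKO ones. It had 0 UMIs in B cell-like and T cell-like cells. Tlr9, the receptor for unmethylated CpG DNA, was nearly undetected, with 14 KO and 5 DKO UMIs in monocyte/macrophage-like cells, 1 UMI in the B cell-like cells of both libraries together, and 0 in neutrophil-like, dendritic cell-like and T cell-like cells.

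Myd88, like Ly96, had UMIs in every class of both libraries. It was at 100.1 CPM in KO and 99.2 CPM in DKO monocyte/macrophage-like cells, and higher in neutrophil-like cells, at 261 and 320 CPM, with log2 ratios of 1.39 (1.03 to 1.72) and 1.71 (1.05 to 2.28). Dendritic cell-like cells had 56.4 and 37.5 CPM, T cell-like cells 33.4 and 25.9 CPM, the Xcl1 and Nkg7 cluster 34.8 and 21.8 CPM, and B cell-like cells 31.1 and 12.98 CPM. Neutrophil markers in the KO monocyte/macrophage-like cells summed to 70.5 CPM, with Ly6g at 0, against 85139 CPM in the neutrophil-like cells.

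**Figure D1:**
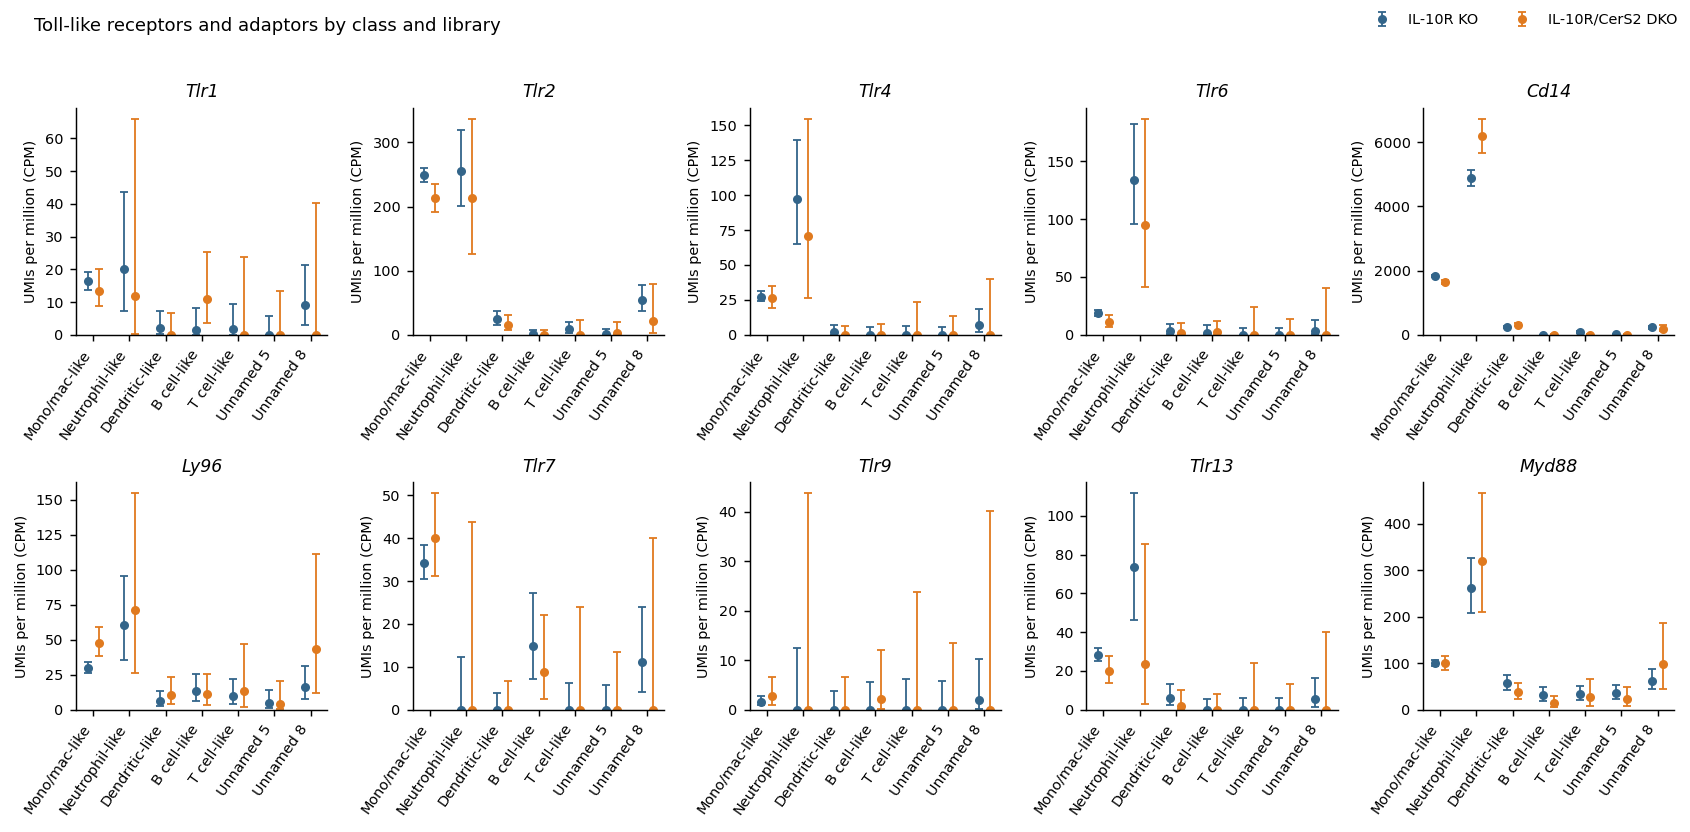
Level of each member in CPM (y axes, linear, starting at 0) in each cell class (x axes), for the KO and the DKO library. Bars around points are exact 95% Poisson intervals of the UMI count; Tlr6, Cd14 and Myd88 are highest in neutrophil-like cells, where Tlr7 has 0 UMIs.

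The share of monocyte/macrophage-like cells with at least 1 UMI followed the counts. Cd14 was seen in 92.1% of the KO cells and in 88.1% of the DKO cells, and with every cell thinned to 2000 UMIs in 86.4% and 80.8%. For Tlr2 the shares were 59.8% and 53.3%, and 35.4% and 32.3% after thinning. Myd88 was seen in 38.9% and 36.7% of cells, or 18.2% and 18.6% after thinning. The other 7 members were seen in at most 20.7% of cells. Thinning left out 91 KO and 28 DKO cells. As a level of background, whose source was not tested, T cell-like cells held Cd14 in 7.48% of KO cells (5.15% after thinning) and Tlr2 in 2.04%. Their median depth was 3638 UMIs in KO and 2911.5 in DKO, against 5499.5 and 5375 in the macrophage class. Tlr4, Tlr6, Tlr7, Tlr9 and Tlr13 were seen in 0 of 147 KO T cell-like cells, for which the exact Clopper-Pearson interval reaches 2.48%. For the 46 DKO T cell-like cells it reaches 7.71%. The share of monocyte/macrophage-like cells with Tlr9, 0.925% in KO and 1.57% in DKO, lay under the bound of its own library, so at this depth it could not be told from background.

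At a depth of 2000 UMIs, most receptors and co-receptors that work together were seen in the same cell rarely, and Cd14 with Tlr2 more often. Of 504 KO monocyte/macrophage-like cells with Tlr2, 13 (2.58%) also had Tlr1, against 2.72% of cells without Tlr2, and 23 (4.56%) also had Tlr6, against 3.92% of cells without. Tlr4 was seen in 5.45% of KO cells with Cd14 and 3.63% of those without, and Ly96 in 5.93% and 5.70%. Read the other way, Cd14 was seen in 67 of the 74 KO cells with Tlr4 and 73 of the 84 with Ly96. Cd14 and Tlr2 were seen together in 453 of 1423 KO cells, with Tlr2 in 36.8% of cells with Cd14 and 26.4% of those without. In DKO the shares, which rest on few cells, were lower among cells with the partner, with Tlr4 in 2.98% of cells with Cd14 (7 of 235) and 7.14% of those without, Ly96 in 8.51% and 10.7%, and Tlr6 in 0 of 94 cells with Tlr2 and 3.05% of those without. Tlr2 was seen in 31.9% of DKO cells with Cd14 and 33.9% of those without. These shares describe which transcripts were captured together and are limited by depth.

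Monocyte/macrophage-like cells were clustered again into states, and the states differed in their receptors. A C1q-high mature state held 545 KO and 71 DKO cells (36.0% and 22.3% of the class). Of its cells, 511 KO and 67 DKO cells were in a cluster with 4 of 8 markers of that name, led by Dnase1l3, Acp5 and Ccr7 and with no C1q gene among its 10 leading genes, and at resolution 0.8 the name went to 129 KO and 34 DKO cells. Classical monocyte-like cells were 432 and 89 (28.5% and 27.9%), and nonclassical monocyte-like cells were 41 and 22 (2.71% and 6.90%). A state led by Ccl7, Egr1, Mrc1 and Gdf15, which the naming rule left unnamed and is called state 2, held 314 and 136 cells (20.7% and 42.6%). A state that expressed all 7 fixed Arg1/Nos2 inflammatory markers held 182 KO cells (12.0%) and 1 DKO cell (0.313%). Each state was set against all other cells of its class, within a library.

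The classical monocyte-like state held more Myd88 and, in KO, more Tlr7 than the rest of the class. Myd88 was at 167 CPM there and 78.4 CPM in the other KO cells, a log2 ratio of 1.09 (0.89 to 1.29), and at 140 and 84.4 CPM in DKO, where the log2 ratio was 0.73 (0.27 to 1.18). Tlr7 was at 54.5 and 27.6 CPM in KO (0.98, 0.63 to 1.33) and at 50.9 and 36.1 CPM in DKO, where the interval included 0 (0.51, -0.28 to 1.24). Tlr4 was higher in this state in both libraries, by 0.51 (0.09 to 0.91) in KO and 1.04 (0.12 to 1.92) in DKO on the log2 scale. Tlr2 was lower in KO, at 186 against 269 CPM (-0.53, -0.69 to -0.37), and Cd14 was lower in KO, at 1422 against 1974 CPM, but not in DKO, at 1658 against 1628 CPM. Also in KO, Ly96 (0.51, 0.11 to 0.89) and Tlr13 (0.45, 0.03 to 0.84) were higher and Tlr1 (-0.72, -1.46 to -0.09) was lower. In DKO the intervals of Ly96, Tlr13 and Tlr1 included 0.

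The C1q-high mature state held less Tlr2, Tlr4, Tlr7, Ly96 and Myd88 in both libraries, and less Tlr13 in KO. Tlr2 was at 227 against 264 CPM in the other KO cells (-0.22, -0.35 to -0.09) and at 166 against 233 CPM in DKO (-0.48, -0.85 to -0.14). Tlr4 was at 15.4 CPM against 36.0 CPM in the other KO cells (-1.21, -1.68 to -0.78) and at 11.6 against 32.7 CPM in DKO (-1.40, -3.02 to -0.25). Tlr7 was at 21.5 against 43.3 CPM in KO and at 15.4 against 50.2 CPM in DKO, where both intervals lay under 0 (-1.40 to -0.63 and -2.97 to -0.63). Myd88 was at 72.5 against 119.8 CPM in KO (-0.72, -0.94 to -0.51) and 42.5 against 122.7 CPM in DKO (-1.50, -2.25 to -0.88), and the log2 ratio of Tlr13 was -0.95 in KO and -1.19 in DKO, the latter with an interval that included 0. Cd14 ran the other way, at 2057 against 1683 CPM in KO (0.29, 0.24 to 0.33) and 2130 against 1432 CPM in DKO (0.57, 0.46 to 0.68). Ly96 was lower, at 24.5 against 33.8 CPM in KO (-0.46, -0.85 to -0.08) and 30.9 against 54.95 CPM in DKO (-0.80, -1.72 to -0.03). Tlr1 was higher in KO, at 20.4 against 13.4 CPM (0.60, 0.11 to 1.10). Tlr6 was higher in DKO, at 21.2 against 6.37 CPM from 11 and 8 UMIs (1.71, 0.29 to 3.25). In KO it was at 20.1 against 17.6 CPM, where the interval included 0 (0.20, -0.27 to 0.66).

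Nonclassical monocyte-like cells, few in number, had the highest Tlr7 and Tlr13 of the KO states and the lowest Cd14. Tlr13 was at 77.5 CPM from 10 UMIs, against 27.5 CPM in the other KO cells (1.56, 0.42 to 2.40). In DKO it was at 40.6 CPM from 3 UMIs against 18.8 CPM, where the interval included 0. Tlr7 was at 132 CPM from 17 UMIs, against 32.7 CPM in the other KO cells (2.05, 1.21 to 2.71), and in DKO at 67.6 CPM from 5 UMIs against 38.8 CPM, where the interval included 0. Cd14 was at 519 against 1859 CPM in KO (-1.83, -2.21 to -1.49) and 784 against 1673 CPM in DKO (-1.08, -1.49 to -0.72). Tlr1 had 0 UMIs in this state in both libraries. State 2 carried Tlr2 at 342 against 228 CPM in KO (0.58, 0.44 to 0.72) and 266 against 179 CPM in DKO (0.57, 0.28 to 0.87). Its Tlr6 was low, at 8.20 against 20.99 CPM in KO (-1.31, -2.30 to -0.54) and 2.84 against 15.9 CPM in DKO, from 13 and 2 UMIs. Of the 14 Tlr9 UMIs in KO monocyte/macrophage-like cells, 8 were in state 2, against 1 of 5 in DKO.

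**Figure D2:**
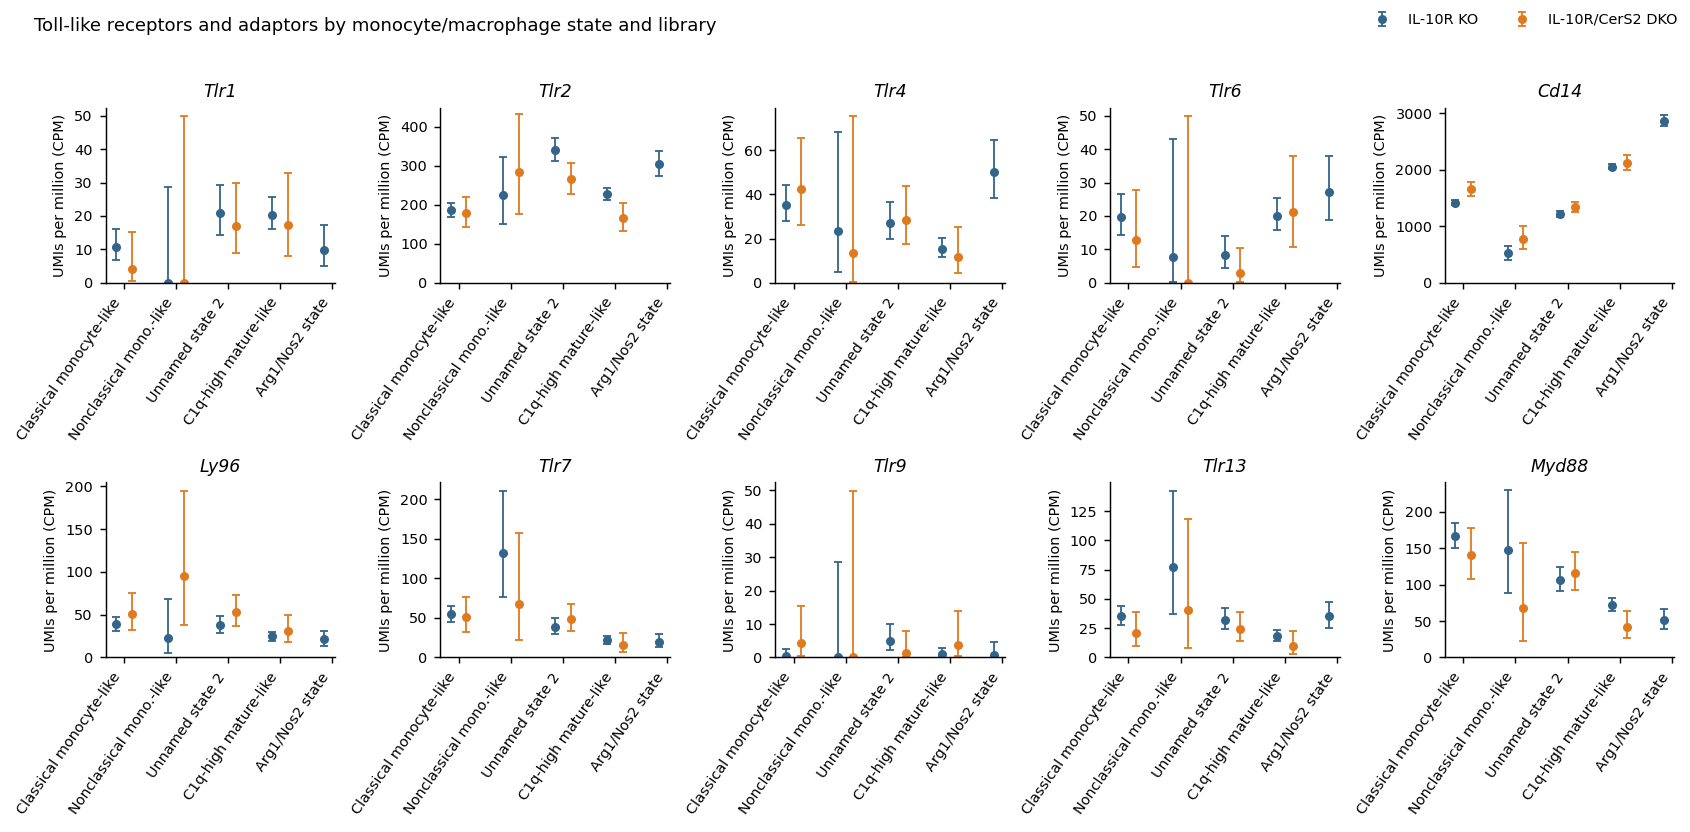
Level of each member in CPM (y axes, linear, starting at 0) in the states of the monocyte/macrophage-like class (x axes), for KO and DKO. Bars around points are exact 95% Poisson intervals; Myd88 is highest in classical monocyte-like cells of KO (167 CPM), and Cd14 is highest in the Arg1/Nos2 state of KO (2875 CPM).

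The Arg1/Nos2 inflammatory state, which was close to absent from DKO, held the surface lipopolysaccharide receptors at high and Myd88 and Tlr7 at low levels. Cd14 was counted in all 182 KO cells of the state, at 2875 CPM against 1670 CPM in the other KO monocyte/macrophage-like cells, a log2 ratio of 0.78 (0.73 to 0.84). Tlr4 was at 50.1 CPM (61 UMIs) against 23.7 CPM, a log2 ratio of 1.09 (0.64 to 1.51), so that 12.0% of the cells held 25.6% of its UMIs. Tlr6 was at 27.1 CPM (33 UMIs) against 17.3 CPM (0.67, 0.05 to 1.21). Tlr2 was higher by less than 1.5-fold, at 305 against 240 CPM (0.35, 0.18 to 0.51), and for Tlr13 the interval included 0 (0.40, -0.13 to 0.87).

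In the same cells Myd88 was at 51.7 CPM (63 UMIs) against 107.9 CPM, a log2 ratio of -1.05 (-1.45 to -0.69). Tlr7 was at 19.7 CPM (24 UMIs) against 36.6 CPM (-0.86, -1.56 to -0.29), which is near the 21.5 CPM of the KO C1q-high mature state. Tlr1, with 12 UMIs in the state, was at 9.85 against 17.4 CPM, and its interval included 0 (-0.77, -1.81 to 0.03), as did that of Ly96 (-0.53, -1.20 to 0.03). By a rule of 1.5-fold, 3 of 9 counted members were higher (Tlr4, Tlr6 and Cd14), where 14.1% of all 9435 counted genes were, and 3 of 9 were lower (Tlr1, Tlr7 and Myd88), where 27.9% of genes were. The median log2 ratio was 0.35 over these members and -0.19 over all counted genes. Scaling by TMM, which moved every ratio up by 0.13, left the same 3 and 3 members past 1.5-fold. Tlr9 had too few UMIs (14) to be counted. The single DKO cell of this state had 16 UMIs of Cd14 and 1 each of Tlr1, Ly96 and Myd88.

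Between the genotypes, the monocyte/macrophage-like cells of DKO had more Ly96 and less Tlr6, and the other 7 counted members differed by less than 1.5-fold. Ly96 was at 29.9 CPM in KO (260 UMIs) and at 47.9 CPM in DKO (85 UMIs), and the log2 ratio of DKO over KO was 0.68 (0.31 to 1.04). Tlr6 was at 18.7 CPM in KO (162 UMIs) and 10.7 CPM in DKO (19 UMIs), with a ratio of -0.77 (-1.57 to -0.11). Thus 1 of 9 counted members was at least 1.5-fold higher in DKO, beside 12.5% of the 9746 genes counted in this class, and 1 of 9 was at least 1.5-fold lower, beside 8.95% of genes. Both shares are what 1 gene in 9 makes and lie near the background. The median log2 ratio was -0.17 over the 9 members and 0.10 over all counted genes.

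Of the surface receptors, Tlr2 was at 248.9 CPM against 213 CPM in DKO, for a ratio of -0.22 on the log2 scale (-0.39 to -0.07). Tlr4 was at 27.4 and 26.5 CPM (-0.04, -0.53 to 0.41), and Tlr1 was at 16.3 and 13.5 CPM (-0.25, -0.96 to 0.36). Cd14 was at 1839 and 1636 CPM (-0.17, -0.23 to -0.11), a small difference with a narrow counting interval. Of the endosomal receptors, Tlr7 was at 34.2 and 40.03 CPM (0.23, -0.17 to 0.61). Tlr13 was at 28.2 CPM (245 UMIs) and 19.7 CPM (35 UMIs), and its interval ended just under 0 (-0.50, -1.07 to -0.00060). The adaptor Myd88 was at 100.1 and 99.2 CPM (-0.01, -0.25 to 0.22). Tlr9, at 14 and 5 UMIs, was not counted.

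TMM and median-of-ratios scaling both lowered every log2 ratio of this comparison by 0.12. Ly96 then stood at 0.56, short of 1.5-fold, Tlr13 at -0.62, past it, and Tlr6 at -0.89, and no counted member changed direction.

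**Figure D3:**
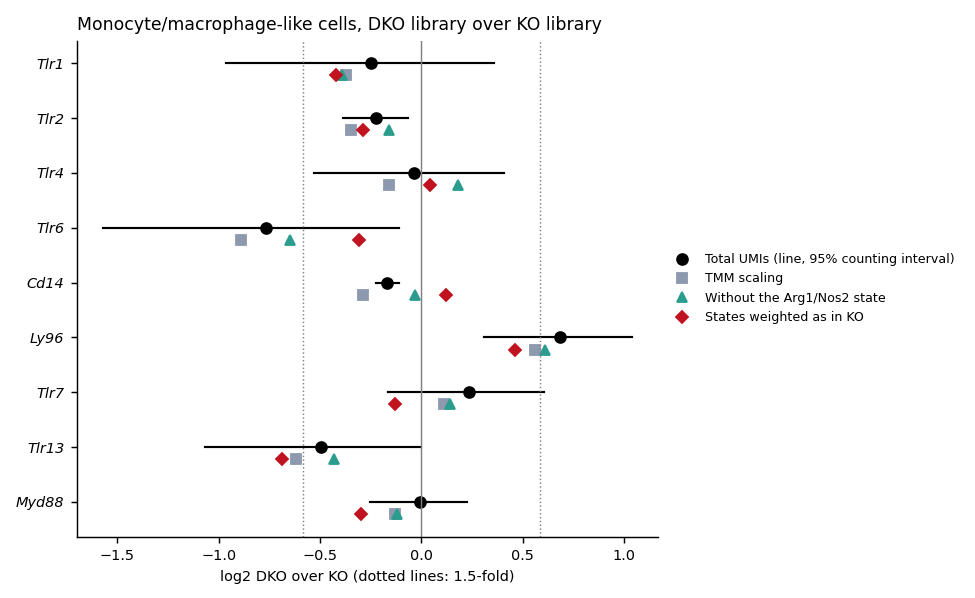
log2 ratio of DKO over KO (x axis) for the 9 counted members in monocyte/macrophage-like cells, each a point with its exact 95% counting interval, and dotted lines at 1.5-fold. Ly96 (0.68) lies to the right of the 1.5-fold line and Tlr6 (-0.77) to the left.

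The states had unequal shares in KO and DKO, and their part in the class ratios was not tested. Without the cells of the Arg1/Nos2 state, the log2 ratio of Cd14 was -0.03, and with the 4 shared states weighted as in KO it was 0.12. Tlr4 moved from -0.04 to 0.18 without that state. Ly96 (0.61) and Tlr6 (-0.65) stayed past 1.5-fold, which made 1 of 9 higher and 1 of 9 lower, beside 11.2% and 7.37% of genes. With the states weighted as in KO, Ly96 was at 0.46 and Tlr6 at -0.31, both within 1.5-fold, and Tlr13 was at -0.69.

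Within the 4 shared states, Cd14 in DKO lay at or above its level in KO. It was at 1422 CPM in KO and 1658 CPM in DKO classical monocyte-like cells (0.22, 0.11 to 0.34), at 519 and 784 CPM in nonclassical ones (0.60, 0.06 to 1.12), at 1211 and 1340 CPM in state 2 (0.15, 0.03 to 0.26), and at 2057 and 2130 CPM in the C1q-high mature state (0.05, -0.04 to 0.14). TMM scaling brought these log2 ratios to 0.19, 0.48, 0.04 and -0.01, so the sign turned in the C1q-high mature state. Tlr2 was lower in DKO in 2 of the 4 states: it was at 227 and 166 CPM in the C1q-high mature state (-0.45, -0.79 to -0.13) and at 342 and 266 CPM in state 2 (-0.36, -0.61 to -0.12), whereas the intervals included 0 in classical (-0.06) and nonclassical (0.35) monocyte-like cells.

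The log2 ratio of Ly96 was above 0 in all 4 states, at 0.37, 0.42, 1.90 and 0.48 in the C1q-high mature, classical, nonclassical and state 2 cells, with 3 and 7 UMIs behind the nonclassical value and intervals that all included 0. That of Tlr13 was under 0 in all 4, at -0.79, -0.67, -0.78 and -0.38, again with intervals that included 0. Myd88 was lower in the C1q-high mature state, at 72.5 CPM in KO and 42.5 CPM in DKO (-0.74, -1.47 to -0.14), while its log2 ratio was -1.02 in nonclassical monocyte-like cells (19 and 5 UMIs), -0.24 in classical ones and 0.13 in state 2, and these 3 intervals included 0. Tlr6 was not of 1 direction, at 0.13 in the C1q-high mature state, -0.53 in classical monocyte-like cells and -1.26 in state 2, the last from 13 and 2 UMIs.

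**Figure D4:**
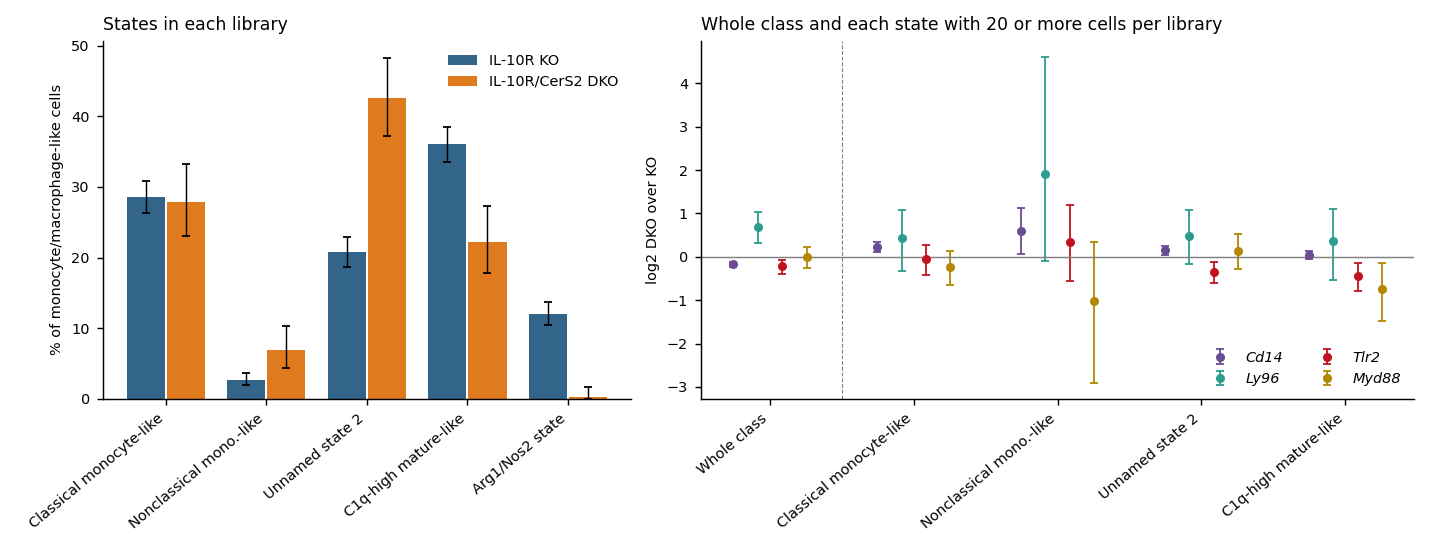
Left, share of monocyte/macrophage-like cells in each state (y axis, percent) for KO and DKO with exact Clopper-Pearson intervals; right, log2 ratio of DKO over KO (y axis) for selected members in the whole class and in each state with at least 20 cells per library. Cd14 lies at -0.17 in the whole class and between 0.05 and 0.60 in the states.

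In the other classes few members had enough UMIs to compare. Cd14 was higher in DKO neutrophil-like cells, at 4866 CPM (1452 UMIs) in KO and 6174 CPM (521 UMIs) in DKO (0.34, 0.20 to 0.49). The median depth of these cells was 1598 and 1550.5 UMIs. Tlr2, Tlr4, Tlr6, Ly96 and Myd88 had intervals that included 0 in these cells, as did Tlr13 with 22 and 2 UMIs (-1.35, -4.77 to 0.39). In dendritic cell-like cells, Cd14 (0.28, -0.01 to 0.57), Tlr2 (-0.56, -1.90 to 0.54) and Myd88 (-0.57, -1.39 to 0.16) were within counting error. Myd88 in B cell-like cells, at 31.1 CPM (21 UMIs) and 12.98 CPM (6 UMIs), was too (-1.18, -2.86 to 0.09).

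T cell-like cells had 51 UMIs of Cd14 in KO, in 11 of 147 cells with up to 17 in 1 cell, and 0 UMIs in the 46 DKO cells. The upper bound of the log2 ratio of DKO over KO was -1.78. Monocyte/macrophage markers moved with it: 11 of 14 were detected in the KO T cell-like cells, at a sum of 1090 CPM with Adgre1, C1qc and Mertk at 0, and 4 of 14 in the DKO ones, at 446 CPM. Their part in the result was not tested.

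The rest of the pathway was followed in a list of 42 genes, of which 37 had enough UMIs in the monocyte/macrophage-like class. At least 1.5-fold higher in DKO were 7, beside the 12.5% of all genes, and at least 1.5-fold lower were 5, beside 8.95%, and the median log2 ratio of DKO over KO was -0.06. With TMM or median-of-ratios scaling the balance turned, to 3 higher (Tlr3, Cd36 and Tab1) and 7 lower, as Irak3 and Pik3ap1 joined the latter. Among the receptors, Tlr12, an endosomal receptor for profilin, was at 15.1 CPM (131 UMIs) in KO and 6.77 CPM (12 UMIs) in DKO (-1.10, -2.15 to -0.30). Tlr8 had 85 and 9 UMIs (-0.88, -2.13 to 0.04), and Tlr3, which binds double-stranded RNA and signals without MyD88, had 20 and 14 UMIs (1.79, 0.68 to 2.84). The flagellin receptor Tlr5 (33 and 8 UMIs) was within counting error, and Tlr11 (7 and 2 UMIs) was not counted.

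Of the adaptors, Tirap, which bridges TLR2 and TLR4 to MyD88, was at 10.9 CPM (95 UMIs) in KO and 6.20 CPM (11 UMIs) in DKO (-0.76, -1.87 to 0.09). Ticam1 (TRIF) was at 25.4 and 23.7 CPM (-0.09), and Ticam2 (TRAM), which links TLR4 to TRIF, was at 28.0 and 38.3 CPM (0.46, 0.04 to 0.85). Unc93b1, which carries the nucleic acid receptors to endosomes, was at 277 and 343 CPM (0.31, 0.18 to 0.44).

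Among accessory genes, Cd36, a scavenger receptor that assists TLR2 and TLR6, was at 54.8 CPM in KO and 150 CPM in DKO (1.45, 1.23 to 1.67). Within states its log2 ratio was 0.92 in state 2, with an interval above 0, and 0.30, 0.10 and 0.04 in the C1q-high mature, classical and nonclassical cells, where the intervals included 0. Over the whole class Cd180, a receptor-like protein, and Ly86 (MD-1), its partner, were higher by 0.60 (0.07 to 1.09) and 0.64 (0.51 to 0.76). Within the C1q-high mature state the log2 ratio of Cd180 was -1.53 (-4.92 to 0.09), from 50 UMIs in KO and 2 in DKO. That of Ly86 was 0.22 there (-0.05 to 0.46), and each of these intervals included 0. Socs1, an inhibitor of cytokine signalling, was at 112 and 38.3 CPM (-1.53, -1.92 to -1.19), and Tnip1, a partner of the NF-κB inhibitor A20, was at 120 and 54.1 CPM (-1.14, -1.46 to -0.84). The kinase Irak4 was at 0.60 and the transcription factor Irf3 at 0.64. With TMM scaling Cd180, Ly86, Irak4 and Irf3 were at 0.48, 0.52, 0.48 and 0.51, all short of 1.5-fold.

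In the Arg1/Nos2 state of KO, 4 of the 37 were at least 1.5-fold higher (Irak3, Tnfaip3, Tnip1 and Socs1), beside 14.1% of all genes, and 14 were lower, beside 27.9%, among them Cd36, Cd180, Ly86, Irak4 and Irf3. Without the state, 2 of 37 stayed at least 1.5-fold higher in DKO (Tlr3 and Cd36), beside 11.2% of genes, and 5 stayed lower (Tlr8, Tlr12, Tirap, Tnip1 and Socs1), beside 7.37%.

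**Figure D5:**
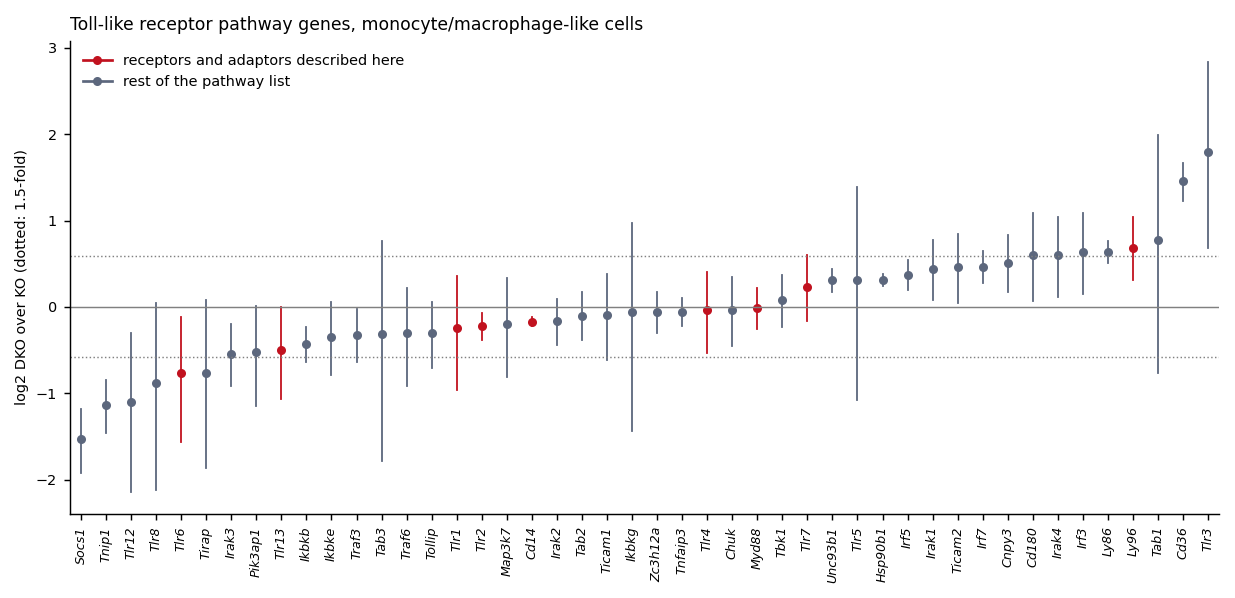
log2 ratio of DKO over KO (y axis) for the counted genes of the Toll-like receptor pathway list and the members (x axis) in monocyte/macrophage-like cells, with exact 95% counting intervals and dotted lines at 1.5-fold. Cd36 (1.45) and Socs1 (-1.53) lie far from 0 with narrow intervals.

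As a description of pattern, the genes most like each member were sought by Pearson's r of log2(CPM + 10) over 20 groups, each a class or state in 1 library, among 6346 genes. The groups share libraries and depth, and Tlr1 and Tlr9 had too few UMIs for it. Fcgr3 (r = 0.973), Slc11a1 and Gpr35 were most like Tlr2, and Ptafr (0.974), Tnfaip2 and Ier3 most like Cd14. Il13ra1 (0.960), Clec4d and Acod1 came first for Tlr4, Tnfaip6 (0.959), Upp1 and Trem1 for Tlr6, and Rab32 (0.951), Irgm1 and Gk for Tlr13. The likeness was lower for Tlr7, with P2ry10b (0.899), Idh1 and Arl8a, and for Ly96, with Trim30d (0.910), Bcl3 and Hacd4. Oasl2 (0.962), Nfam1 and Sirpb1b were most like Myd88.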

How the data were processed

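Single-cell RNA-seq of sorted colon cells was analysed for 1 KO and 1 DKO library. The files as deposited hold UMI counts for each barcode, not normalized, from Cell Ranger 6.0.1, run by the authors on mm10 with 3′ libraries. Totals were 12549471 UMIs over 2584 barcodes in KO and 3414944 over 742 in DKO. Members and lists were chosen with earlier results of these data known. Following the study's methods, cells of 300 to 5000 genes with mitochondrial UMIs up to 10% were clustered together in Seurat 5.3.0 (R 4.3.3; the study used 4.3.0) on 2000 variable genes, without the members and pathway list, with 30 components, 20 neighbours and resolution 0.3. Clusters were named from marker lists. UMIs were summed by class, state and library and given per 1000000 (CPM). Ratios had 0.5 counts added, with exact conditional intervals (scipy 1.17.1), and were counted with at least 20 UMIs. All 10 members were named. Pathway genes were named for a receptor, adaptor or chaperone role, or for a 1.5-fold difference with at least 50 UMIs. Irak3, Tnfaip3, Pik3ap1 and Tab1 were named after their values were seen. Scrublet (scanpy 1.11.5) called 6 KO and 1 DKO doublets. Doublets were kept, and the 5% of barcodes with the highest scores were left out in an alternative. TMM came from edgeR 4.0.16 and median of ratios from DESeq2 1.42.0. The scripts were tested on simulated data.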

Additional observations from a re-analysis of the deposited data

Results flagged for a closer look

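Cd14 differed in the direction of its DKO over KO ratio between groups of cells, and the difference between groups was not tested, since each genotype had 1 library. In the whole monocyte/macrophage-like class its log2 ratio was -0.17. It was above 0 on the same scale in other groups, at 0.34 in neutrophil-like cells, 0.22 in classical monocyte-like cells, 0.60 in nonclassical monocyte-like cells and 0.15 in state 2. In T cell-like cells the fitted log2 ratio was -4.73, from 51 UMIs in KO and 0 in DKO with 0.5 counts added, which depends on that added count and is no bound.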

How the results depend on the processing

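No paired analysis was possible because each genotype had 1 library. In the DKO over KO comparison of monocyte/macrophage-like cells, 1 member was at least 1.5-fold lower. The count was 2 with TMM or median-of-ratios scaling, at resolution 0.8, with classes gated on marker UMIs per cell, and without the cell with the most UMIs, since Tlr13 (-0.60 to -0.63) joined Tlr6. The count of higher members, 1 for Ly96, was 0 with TMM or median-of-ratios scaling (0.56), in thinned cells (0.58) and with states weighted as in KO (0.46), and 2 with no minimum of UMIs, as Tlr9 (0.89, 19 UMIs) was then counted. In the Arg1/Nos2 comparison, 2 to 3 members were higher and 3 to 4 lower under every alternative run. Both scalings of it and of the pathway list, and keeping the largest unnamed cluster at resolution 0.8, were chosen after seeing the data. Of the pathway list, 7 genes higher and 5 lower became 3 and 7 with TMM or median-of-ratios scaling. No direction reversed among results past 1.5-fold. Ly96 in the Arg1/Nos2 state was at -0.53, and at 0.34 in thinned cells. Depth limited Tlr1, Tlr6, Tlr9 and Tlr13 in DKO most, at 5 to 35 UMIs.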
